A study of Rattus norvegicus with 12 samples.

Results

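The Csrnp3 locus is a stretch of rat chromosome 3 around a differential DNA methylation region (DMR) of prostate epithelial cells. It comprised all 100 bp windows with a start from 52051801 to 52093001 (build Rnor 6.0), which is the 1200 bp region 52071801 to 52073000 that the study assigns to Csrnp3, with 20 kb on each side. These were 413 of the 27820300 windows of the genome. The locus was chosen by the lineage difference of the epithelial cells, and the label says that methylation there was raised. The epithelial lineage values below are therefore a description and were not tested. The tests are on the stromal cells and on the contrast of the cell types outside the 1200 bp region. The locus was not divided into exons and introns, because the gene table at hand is of another build (GRCr8). By name, the nearest protein-coding genes on chromosome 3 in that table are Scn2a, which encodes a sodium channel subunit, before Csrnp3 and LOC134486369 and Galnt3, which encodes a glycosyltransferase of mucin-type O-linked sugars, after it.

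The DNA came from F3 generation males of an outbred rat strain, Hsd:Sprague Dawley. The vinclozolin lineage descended from F0 females that were injected with vinclozolin at 100 mg/kg body weight per day on days 8 to 14 of gestation. The control lineage descended from F0 females that received the vehicle, dimethyl sulfoxide (DMSO). The F1 to F3 animals of both lineages received no treatment themselves. Ventral prostates were taken at 19 to 21 days of age and split by digestion, settling and centrifugation into an epithelial and a stromal fraction. Each sample is a pool of tissue from several rats, and there were 3 pools for each of the 4 groups (epithelial control, epithelial vinclozolin, stromal control, stromal vinclozolin), 12 in all. The study gives at least as many rats in each vinclozolin pool as in any control pool, so pool size differed with lineage. Per the study's methods, the tissue of each group of rats was processed into both fractions, so that the epithelial and stromal pools of a lineage share their animals. The purity of the fractions rests on the labels, since marker transcripts cannot be read from DNA.

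Csrnp3 encodes cysteine-serine-rich nuclear protein 3, a member of a small family of nuclear proteins with the ability to activate transcription. Vinclozolin is a dicarboximide fungicide whose metabolites block the androgen receptor, and the prostate is an androgen-dependent gland. In methylated DNA immunoprecipitation (MeDIP), an antibody against methylated cytosine pulls down DNA fragments, which are then sequenced. The read number of a window therefore depends on the methylation of its CpG sites, on how many of them the fragments hold and on the depth of the library. MeDIP does not give the methylated share of a site, and a change of methylation within cells cannot be told apart from a change in the mix of cells of a pool.

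The value of a window is the number of reads that overlap it, and 1 read can be counted in neighbouring windows. Summed over all windows, the pools held from 60600121 to 87262275 such counts in the epithelial control group and from 74605038 to 109250697 in the epithelial vinclozolin group. The stromal control pools held from 57135700 to 73948807 and the stromal vinclozolin pools from 71843106 to 112304623. Stromal vinclozolin pools 1 and 2 held more counts than any stromal control pool, and pool 3 lay inside the control range. Levels are given as CPM, read counts divided by library sizes after TMM scaling over the 12 pools together, and log2 ratios are of mean CPM. The stromal exact test and its log2 fold changes used TMM factors of the stromal pools alone. The highest count of any window was 300 in each of the 12 pools, whatever the depth, and the highest count at the locus was 290. The cause of the shared maximum of 300 was not tested.

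The locus held a fixed pattern of sharp peaks and empty stretches that all 4 groups shared. Of the 413 windows, 40 had no read in any pool, in 4 runs. The longest runs were 16 windows from 52063601 to 52065200 and 20 windows from 52081901 to 52083900. Over the 352 windows whose reads in the 12 pools summed to 10 or more, the mean CPM per window had a median of 0.163 in epithelial control, 0.193 in epithelial vinclozolin, 0.165 in stromal control and 0.206 in stromal vinclozolin pools. Pearson's r of the mean CPM across these windows lay between 0.977 and 0.992 for the 6 pairs of groups, as a description. Windows are not independent, since neighbours share reads and all groups share the base composition. The r was 0.992 between the cell types in each lineage, 0.983 between the lineages in epithelial and 0.978 in stromal cells. The profile of CPM along the locus shows these peaks.

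**Figure D1:**
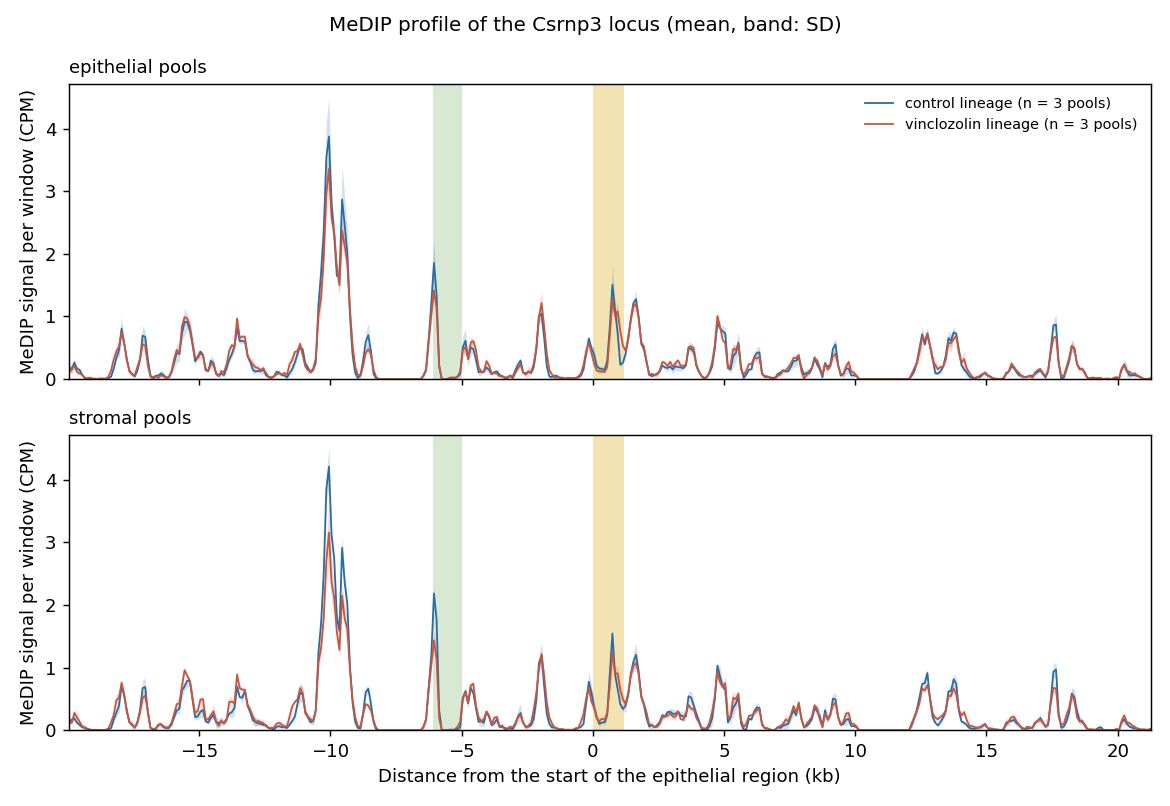
Mean CPM per 100 bp window (lines) with the SD of 3 pools (bands) in epithelial (top) and stromal (bottom) pools of the control and vinclozolin lineages, against the distance in kb from the start of the 1200 bp epithelial region (yellow). Green marks the 1100 bp stromal region. Peaks sit at the same places in the 4 groups, and the highest peak, about 10 kb before the epithelial region, is lower in the vinclozolin lineage mean of both cell types.

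The highest signal of the locus was not in the 1200 bp region. It was a block of 11 neighbouring windows from 52061401 to 52062500, each with a mean count of at least 100 over the 12 pools. In its highest window, 52061701, the 12 pools held between 259 and 290 reads, close to the maximum of 300 that all pools share. Summed over the block, CPM was 27.1 ± 4.10 (SD, n = 3) in epithelial control and 24.1 ± 2.18 (n = 3) in epithelial vinclozolin pools. It was 28.8 ± 1.04 (n = 3) in stromal control and 21.8 ± 2.28 (n = 3) in stromal vinclozolin pools. The epithelial groups overlapped, with 31.9, 24.4 and 25.1 CPM in the control and 24.3, 21.9 and 26.2 CPM in the vinclozolin pools. In stromal cells, the block sum was 30.0, 28.5 and 28.0 CPM in the control pools and 21.7, 19.6 and 24.2 in the vinclozolin pools. The stromal groups did not overlap in CPM, and pool 3 of the vinclozolin lineage, the one with a depth inside the control range, lay nearest to the controls. In reads the stromal groups overlapped, with 1699, 1822 and 2029 in the control and 2151, 1985 and 1742 in the vinclozolin pools.

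The study lists the 1200 bp region as higher in the vinclozolin lineage, with a single window under its p threshold. The region was not raised as a whole. Its 12 windows summed to 410, 500 and 375 reads in the epithelial control pools and to 492, 585 and 494 in the epithelial vinclozolin pools. After scaling, the sums were 7.01, 5.97 and 5.13 CPM in the control and 6.27, 5.96 and 6.70 CPM in the vinclozolin pools. The groups overlapped, with means of 6.04 ± 0.942 (SD, n = 3) and 6.31 ± 0.376 (n = 3) CPM and a log2 ratio of vinclozolin over control of 0.06. The raised methylation of the label held for the last 3 windows, 52072701, 52072801 and 52072901, and not for the other 9. In the first 9 windows, from 52071801 to 52072601, the epithelial log2 ratio was between -0.68 and -0.14. Their sum was 4.82 ± 0.822 CPM in control and 3.93 ± 0.159 CPM in vinclozolin pools (SD, n = 3 each). The groups overlapped in this sum, with 5.71, 4.66 and 4.09 CPM in the control and 3.85, 3.83 and 4.11 CPM in the vinclozolin pools.

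The window 52072801 had the largest ratio of the region. It held 13, 23 and 14 reads in the epithelial control pools and 63, 68 and 59 reads in the epithelial vinclozolin pools. The groups did not overlap in read counts or in CPM, which follows from the choice of the region. The mean was 0.230 ± 0.0421 CPM (SD, n = 3) in control and 0.765 ± 0.0630 CPM (n = 3) in vinclozolin pools, a ratio of 3.33 (log2 1.74).

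The neighbouring windows had smaller ratios in the same direction. Window 52072701 held 47, 65 and 44 reads in the control and 86, 90 and 91 in the vinclozolin pools, a ratio of 1.49. Window 52072901 held 16, 22 and 18 reads in the control and 41, 51 and 41 in the vinclozolin pools, a ratio of 2.04. Together the 3 windows summed to 1.22 ± 0.154 CPM in epithelial control and 2.38 ± 0.235 CPM in epithelial vinclozolin pools (SD, n = 3 each), a ratio of 1.95.

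The edges of the region differed in the same description. The last window before it, 52071701, had an epithelial log2 ratio of -0.24 and the first inside, 52071801, of -0.68. The last inside, 52072901, had 1.03 and the first after it, 52073001, 0.16. The study set its edges by p-values of the same epithelial pools. A step at an edge therefore follows from that rule, and nothing is read from it. The higher values ended within 100 bp of the downstream edge. They lay between a peak at 52072501, with a mean count of 106 over the 12 pools, and the next peak at 52073401. The plot of the region by pool shows that the trough between these peaks was shallower in the vinclozolin pools.

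**Figure D2:**
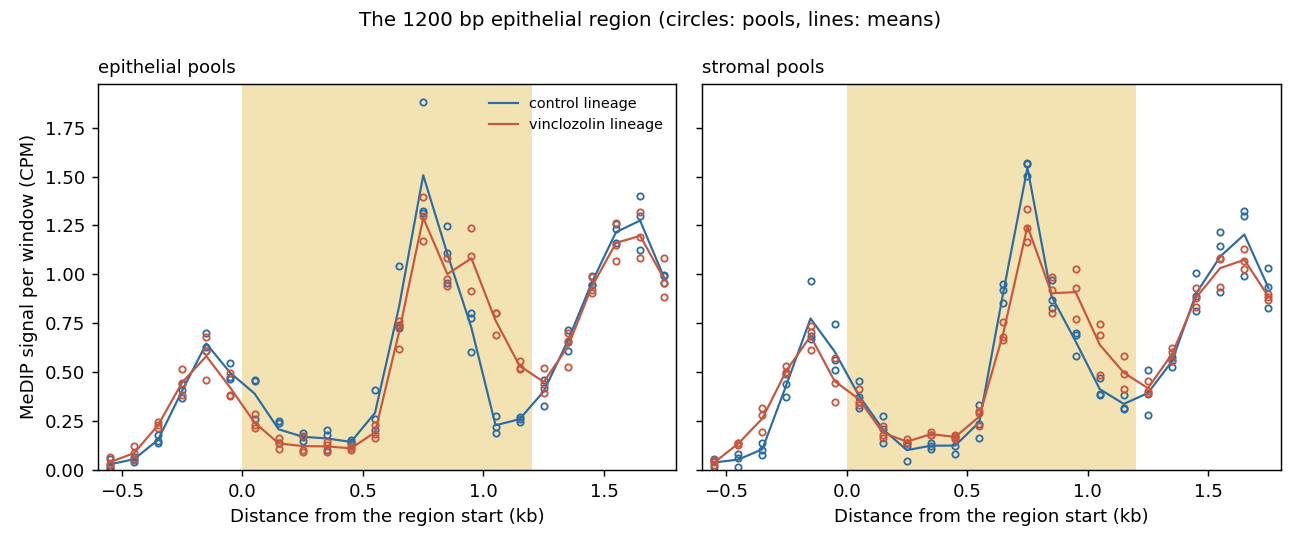
CPM per 100 bp window of each pool (circles) and group means (lines) from 0.6 kb before to 1.8 kb after the start of the 1200 bp region (yellow), for epithelial (left) and stromal (right) pools. In the last 3 windows of the region all 3 vinclozolin pools lie above all 3 control pools in both cell types, while at the peak before them the means of the vinclozolin lineage are the lower ones.

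The first comparison asks whether stromal cells showed the difference that chose the region in epithelial cells. Over the 1200 bp region, stromal pools held 342, 377 and 429 reads in the control and 658, 619 and 428 in the vinclozolin lineage. After scaling, the sums were 6.03, 5.89 and 5.91 CPM in control and 6.63, 6.12 and 5.94 CPM in vinclozolin pools. The means were 5.94 ± 0.0751 and 6.23 ± 0.355 CPM (SD, n = 3 each), a log2 ratio of 0.07. The groups overlapped, with 2 of 3 vinclozolin pools above all controls (exact two-sided permutation test, p = 0.2, where 3 against 3 pools cannot go below 0.1).

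In stromal cells, the last 3 windows of the region had values in the same direction as in epithelial cells. Window 52072801 held 22, 30 and 28 reads in the stromal control and 74, 70 and 35 in the stromal vinclozolin pools. The groups did not overlap in reads or in CPM, with 0.414 ± 0.0473 and 0.641 ± 0.137 CPM (SD, n = 3 each). Pool 3 of the vinclozolin lineage, the one with a depth inside the control range, lay close to the highest control. The log2 fold change of this window was 0.61 and did not pass across the genome (edgeR exact test, p = 0.00334, adjusted p = 0.354). Windows 52072701 and 52072901 had log2 fold changes of 0.40 and 0.51, each with an adjusted p of 0.583 in the same test. Summed over the 3 windows, stromal CPM was 1.41 ± 0.108 in control and 2.05 ± 0.217 in vinclozolin pools (SD, n = 3 each), a ratio of 1.45. This is beside the epithelial ratio of 1.95, and the difference between the cell types was not tested because the windows were picked on the epithelial values.

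Over the first 9 windows, the stromal sum was lower in the vinclozolin lineage, as the epithelial one was, with 4.53 ± 0.183 CPM in control and 4.18 ± 0.156 CPM in vinclozolin pools (SD, n = 3 each), a log2 ratio of -0.12. All 3 vinclozolin pools lay below all controls in this sum. Of the 9 windows, 4 had a negative stromal log2 ratio, the sign of the epithelial one, and 5 a positive one. At 52072401 and 52072501, the flank and top of the peak, all stromal vinclozolin pools lay below all controls, with log2 fold changes of -0.41 and -0.37 (edgeR exact test, adjusted p of 0.439 and 0.316). In 52072001 and 52072101, all stromal vinclozolin pools lay above all controls, with log2 fold changes of 0.44 and 0.50 (adjusted p of 1 and 0.921). The epithelial log2 ratios in those windows were -0.47 and -0.42. None of the 12 windows was called in stromal cells.

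Over the whole locus, 330 windows reached a summed stromal count of 10 and were tested within the 11670448 such windows of the genome. At an adjusted p under 0.1 (edgeR exact test), 2 windows were higher and 5 were lower in the vinclozolin lineage. Across the genome, 0.0338% of windows were called higher and 0.0761% lower. These genome shares are over all read counts, and calls varied with the read count. Where the summed stromal count reached 800, 3 of 9 windows of the locus were called lower, beside 13.3% of the genome. From 400 to under 800 it was 1 of 16, beside 7.37%, and from 200 to under 400 1 of 62, beside 1.86%. Both windows called higher were among 73 from 100 to under 200, beside 0.114%. At an unadjusted p under 0.05 there were 55 windows (29 higher and 26 lower), or 16.7% of those tested, beside 6.88% of the genome. This share was not matched on read count.

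The window with the smallest p was 52065701, which lies 6.1 kb before the epithelial region and heads the stromal region that the study assigns to Csrnp3. It held 126, 144 and 151 reads in the stromal control and 144, 129 and 113 in the stromal vinclozolin pools. The read counts overlapped, and the groups separated after scaling to depth. The mean CPM was 2.18 ± 0.0904 in control and 1.43 ± 0.147 in vinclozolin pools (SD, n = 3 each), a log2 fold change of -0.67 (edgeR exact test, p = 3.25e-09, adjusted p = 0.000125). Window 52065801 next to it held 103, 110 and 129 reads in the control and 115, 94 and 96 in the vinclozolin pools, with a log2 fold change of -0.69 and an adjusted p of 0.0562.

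The study starts a DMR at a window under its p threshold and extends it to windows with a p under 0.1 within 1000 bp. At 1e-06, the locus held 1 such stromal window, 52065701, and the extended region ran from 52065701 to 52066800. It is 1100 bp long and 5 of its 11 windows had a p under 0.1. The study already lists a stromal DMR with this start and length, lower in the vinclozolin lineage. The region found here comes from the same pools and is no independent support for that call. Its signal lay in the first 3 windows, which summed to 248, 276 and 299 reads in the stromal control and 277, 237 and 227 in the stromal vinclozolin pools. In CPM these were 4.27 ± 0.131 and 2.76 ± 0.405 (SD, n = 3 each), without overlap. In the epithelial cells they were 3.41 ± 0.484 and 2.74 ± 0.236 CPM, also without overlap, while the reads (232, 264 and 227 against 202, 260 and 222) overlapped. The next 3 windows held no read in any pool. The last of the region, 52066701, had a log2 fold change of 1.64, opposite to its head, with 6, 2 and 0 reads in the control and 11, 19 and 8 in the vinclozolin pools (edgeR exact test, adjusted p = 0.471).

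**Figure D3:**
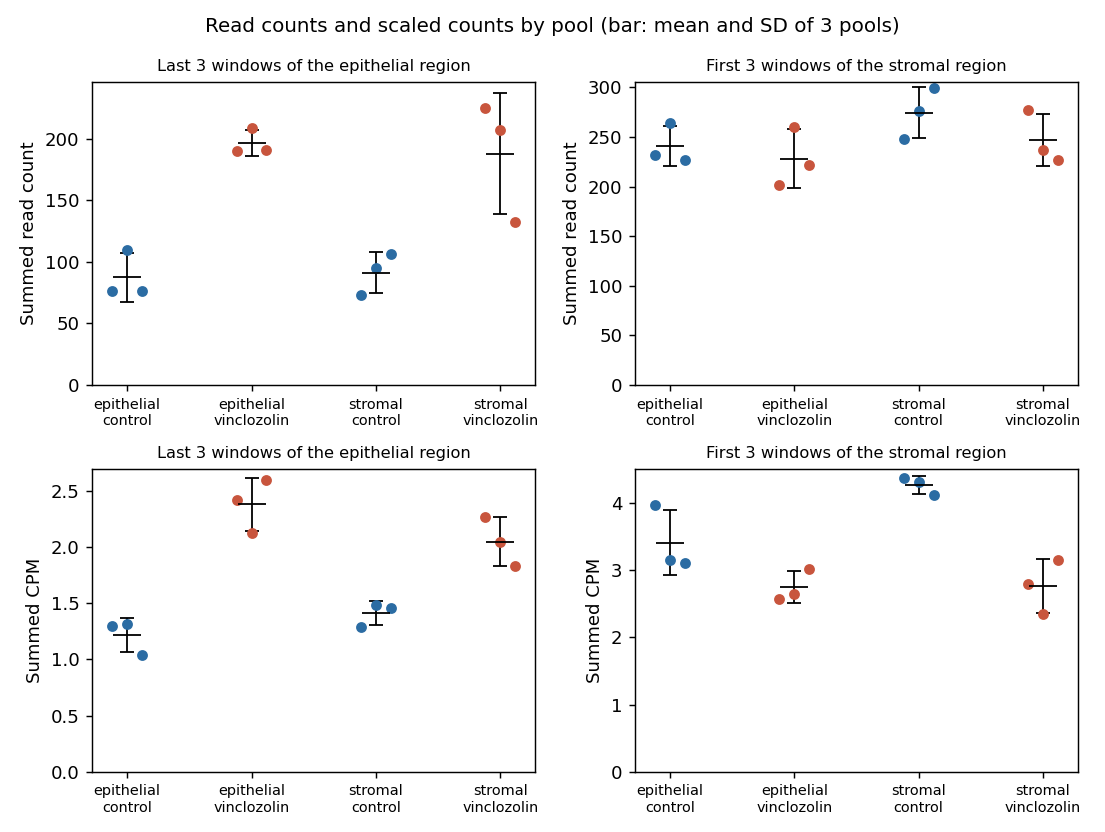
Summed read counts (top) and summed CPM (bottom) of each pool, with the mean and SD of 3 pools, for the last 3 windows of the epithelial region (left) and the first 3 windows of the stromal region (right). On the left the lineages separate in read counts and in CPM in both cell types. On the right the stromal read counts overlap and the stromal CPM values do not.

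The other called stromal windows lay further upstream. Windows 52061501 and 52061601, on the flank of the highest peak, had log2 fold changes of -0.54 and -0.56 (edgeR exact test, adjusted p of 0.0381 and 0.0753). In reads, 52061601 held 229, 249 and 262 in the control and 267, 241 and 219 in the vinclozolin pools, so that the counts overlapped. Window 52063201 held 40, 42 and 45 reads in the control and 43, 44 and 23 in the vinclozolin pools, with a log2 fold change of -0.75 (adjusted p = 0.078). The 2 windows that were higher were 52060301 and 52060401, about 11.5 kb before the epithelial region. Window 52060301 held 8, 8 and 13 reads in the stromal control and 37, 43 and 25 in the vinclozolin pools, with a log2 fold change of 1.298 (adjusted p = 0.0219). Window 52060401 held 11, 12 and 20 reads in the control and 46, 42 and 34 in the vinclozolin pools, with a log2 fold change of 0.95 (adjusted p = 0.0968). In both, the read counts did not overlap, pool 3 included. In epithelial cells, 52060401 also had all vinclozolin pools above all controls in CPM, with 12, 25 and 21 against 37, 43 and 29 reads.

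The stromal calls of the locus depended on the pools. When each stromal pool was left out in turn, from 1 to 13 windows were called. The count was 1 without control pool 1, 1 without control pool 2, 3 without control pool 3, 2 without vinclozolin pool 1, 1 without vinclozolin pool 2 and 13 without vinclozolin pool 3. Window 52065701 was called in all 6 of these fits, with adjusted p from 1.78e-06 to 0.0629. Without vinclozolin pools 1 and 2, the deepest, no window of the 302 tested was called (edgeR exact test, 24 or 7.95% with an unadjusted p under 0.05, beside 4.68% of the genome). Calls across the genome were fewer too in that fit, at 0.00343% higher and 0.0111% lower. The 4 windows with a mean count of at least 100 that had been called lower had smaller log2 fold changes there, from -0.28 to -0.42 (-0.42 in 52065701, adjusted p = 0.805). The log2 fold change was 1.25 in 52060301, 1.13 in 52060401 and -0.98 in 52063201. With DESeq2 on chromosome 3 alone, 3 windows were called, all lower.

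The direction of the lineage difference varied with the read count of a window. Of the 14 windows with a mean count of at least 100, all 14 had a lower stromal mean CPM in the vinclozolin lineage (median log2 ratio -0.40) and 12 had a lower epithelial mean (median -0.22). Their summed read counts hardly followed depth, since the mean vinclozolin over control ratio was 1.04 in stromal and 1.03 in epithelial pools, beside ratios of total counts of 1.51 and 1.21. In the 246 windows with a mean count from 1 to under 30, the median log2 ratio was 0.27 in stromal and 0.14 in epithelial cells. The ratio of their summed reads was 1.69 in stromal and 1.29 in epithelial pools. Of the 5 windows called lower, 4 had a mean count of at least 100, and both windows called higher were under 30.

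The windows of the whole genome showed the same ordering, around a median over all windows of 0.11 in stromal and 0.07 in epithelial cells. With the scaling of the stromal exact test, the median stromal log2 fold change was 0.068. Where the summed stromal count reached 800, the median log2 ratio was -0.24, and 13.3% were called lower and none higher by the edgeR exact test. From 400 to under 800 the median was -0.08, and 7.37% were called lower and 0.0953% higher. From 10 to under 40 the median was 0.15. The epithelial medians for these 3 classes were -0.14, -0.08 and 0.09. The stromal medians of the locus in these classes were larger in size, at -0.42, -0.15 and 0.36, over 9, 16 and 70 windows. The epithelial ones of the locus were -0.21, -0.05 and 0.11. From 40 to under 100 the stromal median was 0.36 at the locus, beside 0.07 in the genome. From 100 to under 200 it was 0.13 beside 0.05, and from 200 to under 400 it was 0.03 in both. The locus was not tested against the genome here. Of the stromal vinclozolin pools, 2 were deeper than every control and 1 was not. The part of depth and of the maximum count in the called windows was not tested beyond the fits without pools given above.

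**Figure D4:**
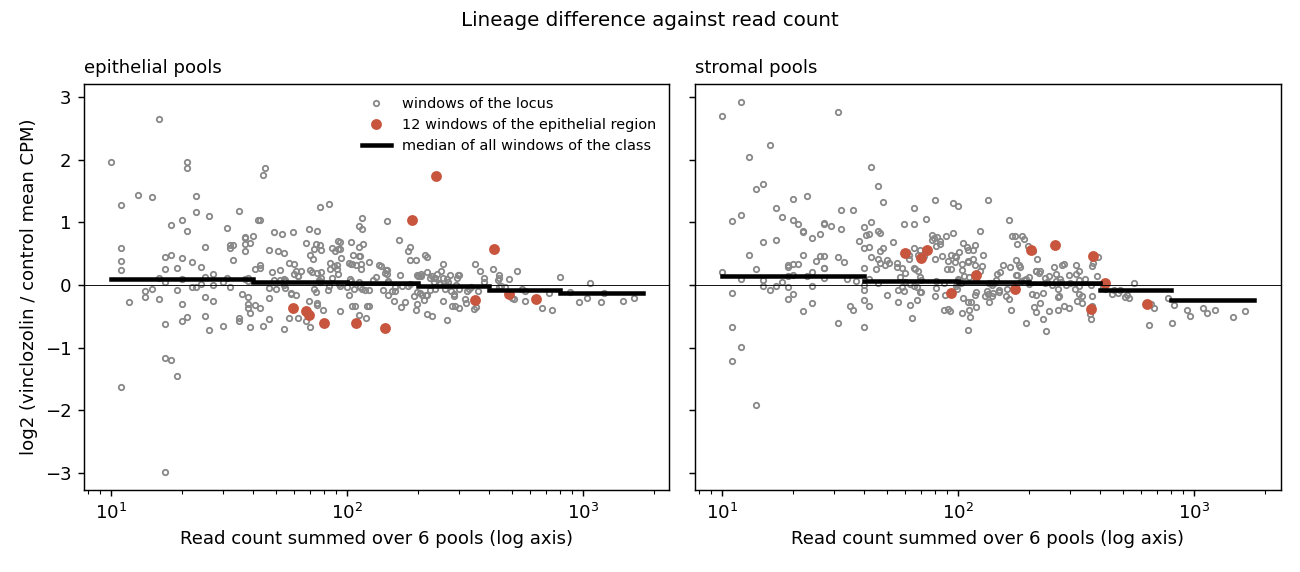
The log2 ratio of vinclozolin over control mean CPM against the read count summed over the 6 pools of the cell type (log axis), for the windows of the locus (open circles), the 12 windows of the epithelial region (filled) and the median of all genome windows in each of 6 count classes (bars, the last class being open upwards). The medians go from 0.09 in the lowest class to -0.14 in the highest in epithelial and from 0.15 to -0.24 in stromal pools.

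As a further description, windows were counted in which the CPM of the 3 vinclozolin pools did not overlap with that of the 3 control pools. In epithelial cells, 40 of the 327 windows that reached a summed count of 10 (12.2%) had all vinclozolin pools above all controls, beside 7.49% of the windows of the genome, and 15 (4.59%) had them below, beside 5.1%. The epithelial contrast chose the locus, so nothing is read from these shares. In stromal cells, 49 of 330 windows (14.8%) had all vinclozolin pools above, beside 9.87% across the genome, and 28 (8.48%) had them below, beside 4.93%. Neighbouring windows share reads, so these windows are fewer separate places than their number. The genome shares also varied with read count. In stromal cells, the share below went from 4.07% at a summed count of 10 to under 40 to 37.2% at 800 or more. The share above was 9.36% and 0.375% in these classes. Within the same classes, the stromal share above was 22% at the locus at 40 to under 100, beside 10.7% of the genome. From 100 to under 200 it was 19.2% beside 13.04%, and in the other classes it was lower at the locus. At 800 or more, all 9 windows of the locus lay below, beside 37.2%. From 200 to under 400 the share below was 16.1% beside 13.6%, and in the other classes it was lower at the locus. The larger shares were thus limited to some classes, and their difference from the genome was not tested.

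The cell types shared a part of these windows, and since their pools come from the same animals, they are not independent samples of a lineage. In 21 of the 322 windows that reached a summed count of 10 in each cell type, the lineages separated in the same direction in both. The vinclozolin lineage was above in 17 (5.28%, beside 1.26% of such windows of the genome) and below in 4 (1.24%, beside 0.533%). The epithelial contrast that chose the locus enters this count, so nothing is read from it. The 17 included the last 3 windows of the 1200 bp region and 52060401, and the 4 included 52065701 and 52065801. Outside the region, the sign of the lineage ratio was the same in both cell types in 146 of 206 windows with a mean count of at least 10 (70.9%, beside 63.8% of the genome), and inside it in 7 of 12. Several windows of the locus had a larger epithelial ratio than any in the region. One of them, chosen after its values were seen, was 52070101, at 1.7 kb before the region. It had a log2 ratio of 1.86 in epithelial cells and a log2 fold change of 0.95 in stromal cells at a summed count of 118 over the 12 pools.

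The second comparison asks where epithelial and stromal cells differed within a lineage. Across the locus outside the 1200 bp region, none of 340 windows tested was called in either lineage at an adjusted p under 0.1 (edgeR quasi-likelihood test over the 12 pools). In the control lineage, 26 windows (7.65%, beside 5.94% of the genome) had an unadjusted p under 0.05, and the lowest adjusted p was 0.737. In the vinclozolin lineage, 15 windows had one (4.41%, beside 5.84%), and the lowest adjusted p was 0.389. With DESeq2 on chromosome 3 alone, none was called either, with 3 and 6 windows at an unadjusted p under 0.05. Calls were rare across the 15927146 windows of the genome as well. In the control lineage, 0.000634% of windows were called higher and 0.00104% lower in epithelial cells, and in the vinclozolin lineage 0.00382% and 0.00495%. At such shares, a count of 0 among 340 windows says little about the locus.

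Summed over the whole locus, the groups had similar levels. The sums were 118 ± 9.72 CPM in epithelial control, 118 ± 1.43 in epithelial vinclozolin, 119 ± 4.18 in stromal control and 116 ± 1.73 in stromal vinclozolin pools (SD, n = 3 each). At the head of the stromal region, the first 3 windows were at 3.41 CPM in epithelial and 4.27 CPM in stromal control pools, and at 2.74 and 2.76 CPM in the vinclozolin pools. At the last 3 windows of the 1200 bp region, the control pools were at 1.22 CPM in epithelial and 1.41 CPM in stromal cells, and the vinclozolin pools at 2.38 and 2.05 CPM.

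The spread between pools differed between the groups and was widest in the epithelial control group. In the 218 windows with a mean count of at least 10, the variance between pools of a group divided by the variance that counting alone gives had a mean of 1.45 in epithelial control, 0.901 in epithelial vinclozolin, 1.08 in stromal control and 0.937 in stromal vinclozolin pools. Epithelial control pool 1 had the highest sum over the 1200 bp region (7.01 CPM), over the block of 11 high windows (31.9 CPM) and over the whole locus (129 CPM) of all 12 pools. Without it, the epithelial log2 ratio over the 1200 bp region was 0.18 in place of 0.06.

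The places whose level over the 12 pools was most like the sum over the 1200 bp region were found among 1667434 bins of 1200 bp elsewhere in the genome, by Pearson's r of log2(CPM + 0.1). The 5 most alike were on chromosome 10 from 72259401 to 72260600 (r = 0.964), chromosome 9 from 19495401 to 19496600 (r = 0.960), chromosome 1 from 278409801 to 278411000 (r = 0.953), chromosome 3 from 168889401 to 168890600 (r = 0.953) and chromosome 4 from 5599401 to 5600600 (r = 0.951). The median r over all bins was 0.04 and 0.00696% exceeded 0.9. These bins were picked as the highest of all, over 12 pools that share scaling, so their r carries no test. The sum over the region differed little between lineages, with log2 ratios of 0.06 in epithelial and 0.07 in stromal pools. Its widest spread was among the epithelial control pools, at 7.01, 5.97 and 5.13 CPM. In those pools the chromosome 10 bin held 0.462, 0.251 and 0.0958 CPM and the chromosome 9 bin 0.274, 0.167 and 0.0274 CPM. The bins were not chosen on the lineage difference of the last 3 windows. They were not matched to genes.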

How the data were processed

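MeDIP-Seq read counts per 100 bp window were deposited by the authors as raw counts, not normalized, in 12 pools. Per the labels and the study's methods, the authors used FastQC for read quality, Trimmomatic for trimming, Bowtie2 for alignment to Rnor 6.0 and SAMtools for file conversion, and took counts and edgeR p-values from the MEDIPS R package. The authors also deposited RPKM values, scaled by MEDIPS to window length and library size, which were not used. Versions, read extension and duplicate handling are not given in the sources used here. Deposited p-values were not used. The members, lists and tests were chosen with earlier results of these data known. Windows were found by position. Named windows were those of the epithelial and stromal regions, their edges, the called windows (at most 5 in each direction) and the 5 bins most like the epithelial region. Windows 52070101, 52059701, 52061701, 52073401 and the block around 52061701 fall outside this rule and were named after their values were seen.

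Stromal lineages were compared with edgeR 4.0.16 (exact test, TMM, common and tagwise dispersion), in windows that reached a summed count of 10. Cell types were compared with edgeR's quasi-likelihood test over 12 pools. P-values were adjusted by Benjamini-Hochberg over all windows tested, and called under 0.1. Alternatives included DESeq2 1.42.0, other scalings, filters, a replicate block and fits without single pools. In the alternative exact tests over the genome, windows whose groups lay within 1.3 SD of counting noise were given a p of 1. On simulated counts, the stromal exact test called 52 of 100 windows changed by 1 on the log2 scale and 98 of 100 changed by 2, among 194508 windows with 11 false calls. The cell-type test in the control lineage called 18 and 71 of 100, among 265453 windows with 3 false calls. The changed windows all had a summed count of at least 100, and the simulation had a single dispersion for all windows and no maximum count. It therefore does not tell how often a change is found in windows with fewer reads. At the locus, 70 stromal windows had a summed count of 10 to under 40 and 100 one of 40 to under 100. No source says how the rats of a pool were related, so p-values refer to pools and not to single rats. Both edgeR tests share information on dispersion between windows, so a p-value does not rest on the spread between the pools of its window alone. Counts summed to between 57135700 and 112304623 per pool.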

Additional observations from a re-analysis of the deposited data

Results flagged for a closer look

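In window 52059701, 12.1 kb before the epithelial region, the lineages separated in opposite directions in the cell types. The epithelial pools held 7, 9 and 9 reads in the control and 5, 9 and 5 in the vinclozolin lineage, and the stromal pools 2, 3 and 6 in the control and 9, 14 and 6 in the vinclozolin lineage. The epithelial log2 ratio of vinclozolin over control was -0.65 and the stromal one 0.92, a difference of -1.57. The groups overlapped or met in read counts in both cell types and separated only in CPM, at 14 reads or fewer in each pool. The difference between the cell types was not tested. It was the 1 window of the locus with this pattern, beside 21 that separated in the same direction.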

How the results depend on the processing

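The number of stromal windows called at the locus, 7 as reported, was 10 with edgeR's quasi-likelihood test, 9 with that test and a replicate block, 6 without TMM factors, 6 with DESeq2 size factors, 6 without a filter and 9 at a summed count of at least 20. It was 3 with DESeq2 on chromosome 3, from 1 to 13 when 1 pool was left out, and 0 without the deepest stromal pools, a setting chosen after seeing the data in which the lone vinclozolin pool is assumed to vary like the controls. Each of the 7 windows kept its sign in all 15 alternatives. Window 52065701 stayed called in 14 of them and 52060401 in 4. The cell-type contrasts gave 0 calls at the locus in each alternative, the replicate block included. Both cell types of a lineage come from the same groups of rats, but no source used here says that equal numbers mark the same group. Deviations of same-numbered pools correlated at r from -0.0979 to 0.00338 between the cell types, and at -0.0181 to 0.0294 between the stromal lineages, which share no animals. Pools of other numbers correlated at -0.0432 to 0.0766 between the cell types and at -0.0385 to 0.0432 between the stromal lineages. These values do not tell whether equal numbers mark the same rats.

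Over the 1200 bp region, the stromal log2 ratio was 0.07 and turned to -0.00838 without TMM factors, to -0.31 in the single window with the most reads and to -0.000598 without the deepest pools. It lay from 0.021 to 0.10 when 1 pool was left out. The epithelial ratio of 0.06 was -0.22 in that single window and lay from -0.041 to 0.18 when 1 pool was left out. With pools of the same number as a replicate block, also chosen after seeing the data, the ratios were 0.07 in stromal (higher in 3 of 3 pairs, exact sign-flip permutation test, two-sided p = 0.25, the smallest it can give) and 0.07 in epithelial cells (higher in 1 of 3 pairs). The cause of these changes was not tested.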
